A study of Mus musculus with 19 samples.

Results

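Transcripts of 8 genes were followed, 6 of them coding for trypsin-like serine proteases of epithelial surfaces and 2 for their Kunitz-type inhibitors. The proteases are Tmprss2, Tmprss4, Hpn (hepsin), St14 (matriptase), Prss8 (prostasin) and Prss22 (tryptase epsilon), and the inhibitors are Spint1 and Spint2, also known as HAI-1 and HAI-2. The genes were taken by name, and all 8 were found among the 23284 gene rows of each deposited table. RNA-seq, which counts short reads per gene, was run on 19 samples in 4 groups to set reprogrammed tissue beside prostate and fibroblasts.

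The prostate group held 6 samples of whole prostate from wild-type C57BL/6 mice at 6 weeks of age. MEFs, which are cultured fibroblasts of mouse embryos, came from C57BL/6 embryos at E13.5 and gave 6 cultures, labelled with the genotype Nkx3-1tm2(LacZ)Mms /+. According to the study's methods, limb cells of littermates of both sexes were pooled and sorted to remove cells with blood, endothelial or epithelial surface proteins. The grafts were grown from iEpt cells, which are MEFs of strain C57BL/6 that had received human OSKM reprogramming factors (Oct4, Sox2, Klf4 and c-Myc) by retrovirus and had then been kept in basal epithelial medium with dexamethasone. In the 5 iEpt+NAF grafts these cells also carried the NAF factors by lentivirus, among them mouse Nkx3.1 linked to GFP and mouse Foxa1, and in the 2 iEpt only grafts they did not. Both kinds of graft were mixed with rat urogenital mesenchyme and grown for 6 weeks under the kidney capsule of male nude mice given testosterone. A graft therefore held rat cells and could hold host kidney and blood beside the reprogrammed cells. The sample labels describe all 7 grafts alike, so the 5 iEpt+NAF grafts were identified by their sample titles in the study's supplementary table and the 2 others by elimination. The study calls the prostate samples independent, but for MEFs and grafts the sources used here do not say whether samples came from separate animals or cultures, so p-values measure the spread between samples, part of which may be technical.

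Many proteases of epithelia are made as membrane proteins with the catalytic domain outside the cell. Tmprss2, Tmprss4, hepsin and matriptase are type II transmembrane proteins, whereas prostasin is held by a lipid anchor. Matriptase and prostasin activate each other in epithelia, cut proteins such as the epithelial sodium channel and the adhesion protein Epcam, and are needed for tight epithelial barriers. Spint1 and Spint2 span the membrane themselves and block matriptase, prostasin and hepsin by presenting Kunitz domains that fit the active site. In the prostate, Tmprss2 is known as an androgen-regulated gene of luminal cells, and hepsin is known for its high level in human prostate cancer and in normal liver and kidney.

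The catalytic mechanism is shared, and it is visible in the coding sequence. The stretch of 30 coding bases around the active-site serine is shown for the 6 proteases to compare their cores, with the serine codon in capitals, read from the coding exons of GENCODE M1 on mm9, 5′ to 3′ on the coding strand.
Tmprss2: tgccagggagacAGTggagggccgctggtt
Tmprss4: tgccagggtgacAGTggtgggcctttgatg
Hpn: tgccagggcgacAGTggaggcccctttgtg
St14: tgccagggtgacTCTggtggccccttgtca
Prss8: tgccagggtgacTCTgggggcccactctct
Prss22: tgtctgggcgacTCTgggggtcccctgatg

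Tmprss2, Tmprss4 and Hpn spelled this serine AGT, whereas St14, Prss8 and Prss22 spelled it TCT. Between any 2 proteases 20 to 25 of the 30 bases were the same, with 25 shared by St14 and Prss8 and 24 by each pair among Tmprss2, Tmprss4 and Hpn. All 6 stretches crossed a splice junction, so the genomic span of each includes an intron. The Tmprss2 stretch ran from exon 12 into exon 13 at chr16:97788759-97789208, and the Hpn stretch ran from exon 11 into exon 12 at chr7:31884375-31884530, both on the minus strand.

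The inhibitors carry 2 Kunitz domains each, and the stretches with the conserved glycine and cysteine codons of the domain core, in capitals, are shown because these domains are what meets the proteases.
Spint1 first domain: tttacttttggaGGTTGCctgggcaacaag
Spint1 second domain: ttcacctatggtGGTTGCtatgggaacaag
Spint2 first domain: tttgtttatggaGGCTGTgaaggcaatggc
Spint2 second domain: ttcatctacggcGGGTGCagaggcaacaag

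The Spint1 stretches lie in exons 4 and 8 of the transcript, at chr2:119071562-119071591 and chr2:119073836-119073865 on the plus strand. Those of Spint2 lie in exons 2 and 5 of the transcript, at chr7:30048666-30048695 and chr7:30043489-30043518 on the minus strand.

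On mm9, the Tmprss2 gene spans chr16:97786291-97832802, Tmprss4 chr9:44980809-45012175 and Hpn chr7:31883744-31900309. St14 lies at chr9:30896987-30939438, Prss8 at chr7:135069239-135073627 and Prss22 at chr17:24130502-24135067. Spint1 spans chr2:119063098-119075263, the only one of the 8 on the plus strand, and Spint2 chr7:30041350-30066996. Tmprss4 overlaps BC049352 and Gm17099, St14 the pseudogene Gm16071 and Prss8 the gene Myst1, all on the other strand. The library kit does not mark the strand, so reads of those overlaps cannot be told apart.

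Levels are given as log2 values normalized by the authors, where 1 unit is a 2-fold difference. Estimated reads on genes ranged from 16767287 to 26152339 in the 17 samples of the first table, and were 6629663 and 9662056 in the iEpt only grafts, which form a separately normalized second table. Their levels are set beside those of the first table without a test and only as far as the scales are alike. A value of 3 reads, taken as the smallest level the depth can show, lay between 1.68 and 2.34 in the first table and at 3.12 and 2.70 in the iEpt only grafts. Of the MEF cultures, 3 pairs (1 with 6, 2 with 5, 3 with 4) were closer to each other than the other 12 pairs, with a mean chi-square per gene of 5.03 to 18.6 against 173 to 233, which is still above the sampling noise of 1. They were kept as 6 samples. The mean log2 value of 8 prostate secretory markers was 16.02 to 16.54 in prostate and 6.25 to 8.74 in the iEpt+NAF grafts. It was 5.86 to 7.52 in MEF cultures 1 to 4 and 1.73 and 1.55 in cultures 5 and 6. All 8 markers were above 3 reads in cultures 1 to 4, whereas 6 and 5 of them were at or below 3 reads in cultures 5 and 6. Of the markers, Tgm4 was measured in all 6 MEF cultures, at 7.26 to 9.82. The mean of 8 epithelial markers was 11.97 to 12.34 in prostate, from 11.57 to 12.65 over the iEpt+NAF grafts, 11.36 and 9.38 in the iEpt only grafts and 2.41 to 4.51 in MEFs. In whole tissue, fewer cells of a type and less RNA per cell cannot be told apart.

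**Figure D1:**
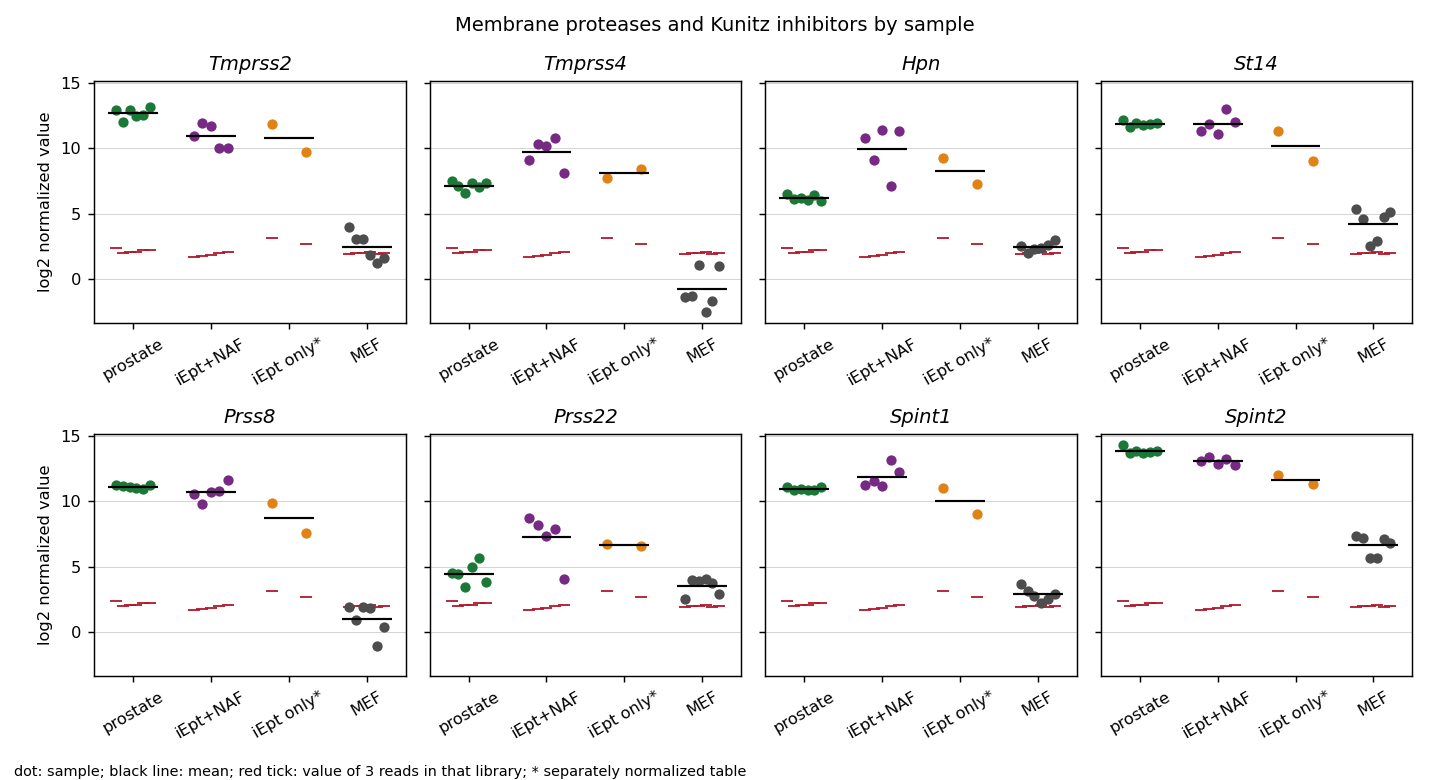
Log2 normalized value (y axis) of each of the 8 genes in every sample, by group, with the group mean as a black line and the value of 3 reads in each library as a red tick. For all genes except Prss22 the prostate and graft samples lie above every MEF culture, and Hpn spreads from 7.08 to 11.40 over the iEpt+NAF grafts.

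Compared with MEFs, most of these genes were high in both epithelial tissues. In prostate, 7 of the 8 genes passed the test as higher, where 27.8% of all 14560 genes tested were called higher and 48.3% were called in either direction. A call needed a Benjamini-Hochberg adjusted p under 0.05 in limma and a log2 fold change of at least 1. These 7 genes did not overlap between the groups, against 66.7% of all genes tested. In the iEpt+NAF grafts, all 8 genes passed as higher than in MEFs, where 29.9% of 16121 genes tested were called higher and 41.9% in either direction, and none of the 8 overlapped, against 47.3% of all genes. Both comparisons use the same MEF cultures. MEF levels of Tmprss2, Tmprss4, Hpn, Prss8 and Spint1 were not high enough for the test by themselves. These genes entered only through prostate or the grafts, which fixed their direction, so nothing is read from the counts over MEFs. The median log2 fold change of the 8 genes was 7.83 for prostate and 8.06 for the grafts, or 7.47 and 7.63 with Tmprss4 at its lower bound, and that of all genes tested was 0.17 and 0.26.

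Between prostate and the iEpt+NAF grafts the 8 genes parted. Tmprss2 was higher in prostate, and Tmprss4, Hpn and Prss22 were lower, so that 1 gene was called higher where 10.3% of 16353 genes were, and 3 were called lower where 23.0% were. Altogether 4 of the 8 were called, beside 33.3% of all genes in either direction, and 5 of the 8 did not overlap, beside 37.2% of all genes. With the adjusted p alone and no minimum fold change, 6 of the 8 passed here, beside 55.6% of all genes, and 8 of 8 in each comparison with MEFs, beside 80.9% for prostate and 65.6% for the grafts. The median log2 fold change was -0.44 for the 8 genes and -0.11 for all genes tested.

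The authors' scaling sets these shares. With quantile normalization the median of all genes moved to -0.02, -0.20 and 0.14 for prostate minus MEFs, grafts minus MEFs and prostate minus grafts. The share of calls that were higher moved from 57.6% to 48.1%, from 71.3% to 42.5% and from 30.9% to 56.4%.

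**Figure D2:**
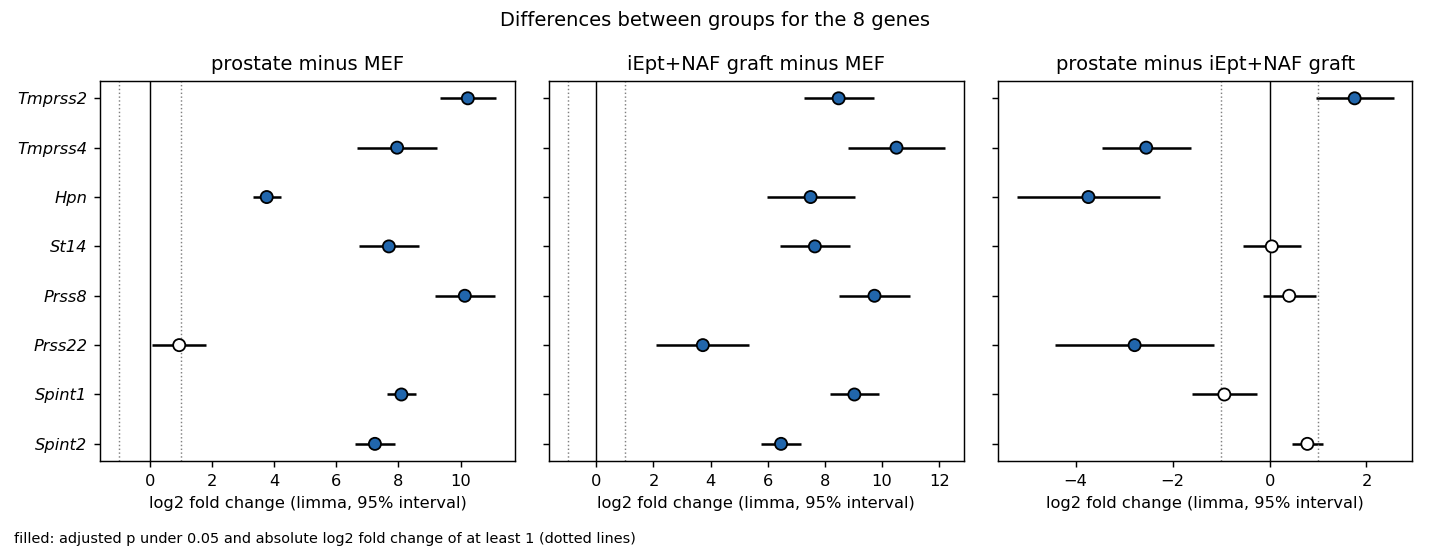
Log2 fold change (x axis) with its 95% interval from limma for the 8 genes in 3 comparisons, filled where the gene was called. In the right panel the filled points are Tmprss2 on the prostate side and Hpn, Tmprss4 and Prss22 on the graft side, while the intervals of St14 and Prss8 cross 0.

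Tmprss2, per length the most abundant of the 6 proteases in prostate, was lower in the grafts. The 6 prostate samples ran from 12.04 through a median of 12.76 to 13.14, and MEFs from 1.21 through 2.44 to 3.98, with 3 of 6 cultures at or below 3 reads. The iEpt+NAF grafts 1 to 5 gave 10.93, 11.94, 11.73, 10.01 and 10.05, and the iEpt only grafts 11.89 and 9.73. Every graft lay below every prostate sample, grafts 4 and 5 lowest among those with NAF, and every graft lay far above the MEFs. The log2 fold change was 10.24 for prostate over MEFs (SE 0.42, adjusted p 1.64e-10 in limma) and 8.48 for the grafts (SE 0.56, adjusted p 4.22e-07). Prostate exceeded the grafts by 1.76 (95% interval 0.95 to 2.56, SE 0.37, adjusted p 0.00188). Among the MEFs the highest value, 3.98, was in culture 1, which also had the highest mean of prostate secretory markers, 7.52, and with cultures 5 and 6 alone the fold change of prostate over MEFs was 11.27.

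Tmprss4, a related transmembrane protease of epithelia that is known for high levels in carcinomas, went the other way. Its values ran from 6.62 through 7.23 to 7.50 in prostate and were 9.10, 10.33, 10.18, 10.82 and 8.10 in iEpt+NAF grafts 1 to 5 and 7.75 and 8.42 in the iEpt only grafts. All 7 grafts lay above the highest prostate sample. In MEFs it was at or below 3 reads in 6 of 6 cultures, so its excess is a lower bound: against the highest MEF floor of 2.08, the mean level was at least 33.7-fold higher in prostate and at least 197-fold higher in the grafts. Prostate fell by 2.55 below the iEpt+NAF grafts (95% interval -3.47 to -1.63, SE 0.42, adjusted p 0.000395 in limma).

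Hpn, the gene of hepsin, had the widest range across grafts of the 4 transmembrane proteases among the 8 genes. Prostate samples ran from 5.98 through 6.19 to 6.49, a range of 0.52, and MEFs from 2.01 through 2.45 to 2.96, with 1 of 6 cultures at or below 3 reads. The iEpt+NAF grafts gave 10.84, 9.12, 11.40, 7.08 and 11.36, a range of 4.32, and the iEpt only grafts 9.29 and 7.25. Every graft lay above every prostate sample, and graft 4 came closest. The log2 fold change was 3.76 for prostate over MEFs (SE 0.21, adjusted p 2.54e-09) and 7.50 for the grafts over MEFs (SE 0.70, adjusted p 4.94e-06), and prostate lay -3.74 from the grafts (95% interval -5.22 to -2.26, SE 0.68, adjusted p 0.00074 in limma). Without graft 4 the difference between prostate and grafts was -4.46, and that between grafts and MEFs 8.22.

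Hepsin is abundant in kidney tubules, so kidney markers were set beside it. The mean log2 value of 10 kidney markers was 11.34, 5.98, 11.44, 7.11 and 12.04 in iEpt+NAF grafts 1 to 5 and 10.24 and 5.98 in the iEpt only grafts, against 0.87 to 2.83 in prostate and 1.57 to 2.93 in MEFs. The 3 iEpt+NAF grafts with Hpn above 10 were the 3 with a kidney mean above 11. Below that the order turned: graft 2 had a lower kidney mean than graft 4 but a higher Hpn, at 9.12 against 7.08. The iEpt only graft 2, also with a kidney mean of 5.98, had Hpn at 7.25. On the log2 scale, the summed level of the list ran from 10.72 to 17.40 over the iEpt+NAF grafts, stood at 11.58 and 15.24 in the iEpt only grafts, and was 5.22 to 7.06 in prostate and 8.48 to 8.87 in MEFs. All 10 kidney markers were called lower in prostate than in the grafts, where 23.0% of all genes were. Apart from Kap and Cubn, they were too low in prostate to be tested without the grafts, so their direction was fixed and nothing is read from this count. In prostate, Cubn ran from 3.66 to 4.38, and Kap reached 6.12 in its highest sample. Umod and Slc12a1 were at or below 3 reads in every prostate sample. With only grafts 2 and 4, those with the lowest kidney means, Hpn in prostate lay -1.88 from the grafts (adjusted p 0.00929 in limma) and was still called. These grafts also had the lowest Hpn of those with NAF, so a smaller difference than over all 5 was fixed by their choice. How much of the Hpn signal belongs to kidney tissue was not tested.

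**Figure D3:**
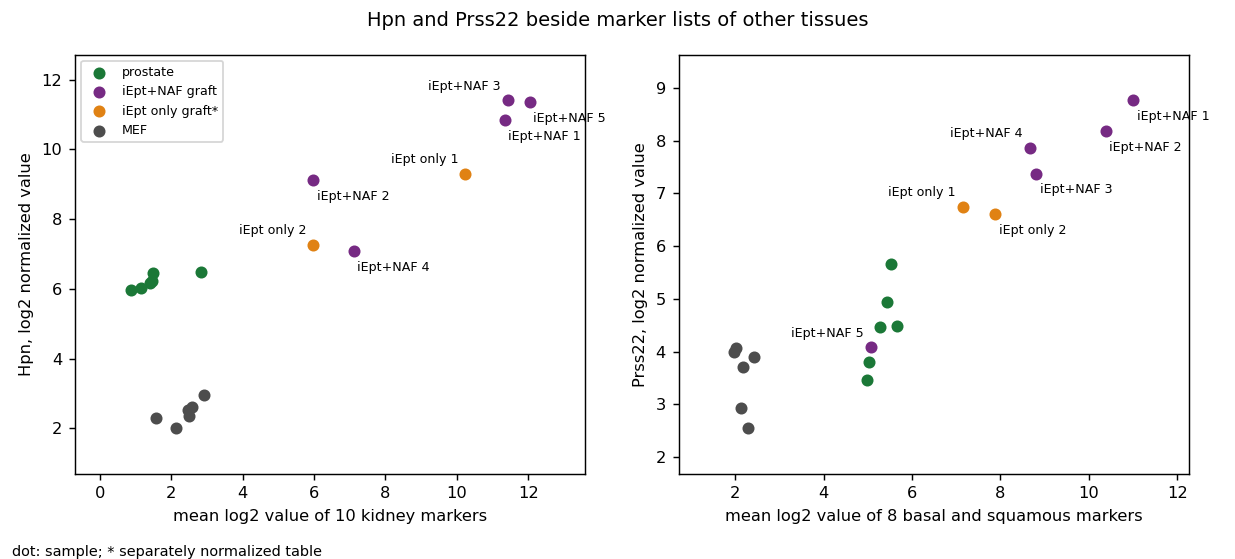
Left, Hpn (y axis, log2 value) against the mean log2 value of 10 kidney markers (x axis) in each sample. Right, Prss22 against the mean of 8 basal and squamous markers, where iEpt+NAF graft 5, at 5.07 on the x axis and 4.08 on the y axis, lies among the prostate samples and the other grafts lie above them on both axes.

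St14, the gene of matriptase, did not pass the test between prostate and iEpt+NAF grafts. Prostate samples ran from 11.64 through 11.92 to 12.17, and grafts 1 to 5 gave 11.33, 11.85, 11.14, 12.99 and 11.99. The iEpt only grafts gave 11.33 and 9.0. The grafts lay on both sides of the prostate range, with a mean difference of 0.05 (95% interval -0.56 to 0.65, SE 0.27, adjusted p 0.896 in limma). A true difference anywhere in that interval is compatible with these samples. With quantile normalization the difference was -0.16, and without graft 1 or graft 3 it was -0.09 or -0.13.

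Fibroblasts were not free of St14. The MEFs ran from 2.5 through 4.68 to 5.39 and all lay above the value of 3 reads, with the closely alike cultures 3 and 4 lowest at 2.5 and 2.90. The log2 fold change over MEFs was 7.69 for prostate (SE 0.45, adjusted p 4.01e-09) and 7.65 for the grafts (SE 0.56, adjusted p 9.22e-07 in limma).

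Prss8 codes for prostasin, the anchored partner of matriptase. It ran from 10.93 through 11.13 to 11.28 in prostate, gave 10.57, 9.80, 10.73, 10.82 and 11.65 in iEpt+NAF grafts 1 to 5, and 9.87 and 7.60 in the iEpt only grafts. MEFs ran from -1.07 through 1.38 to 1.94, with 5 of 6 cultures at or below 3 reads. Graft 5 lay above all prostate samples and the other four below them. The difference of prostate minus grafts was 0.40 (95% interval -0.14 to 0.95, adjusted p 0.184 in limma) and did not pass the test. Over MEFs the log2 fold change was 10.14 for prostate (SE 0.45, adjusted p 3.45e-10) and 9.73 for the grafts (SE 0.57, adjusted p 2.01e-07 in limma). Its size rests on MEF values below the smallest level the depth can show, and against the highest MEF floor the differences were 9.04 and 8.63.

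Prss22 codes for tryptase epsilon, which can activate pro-urokinase, and per length it had the lowest mean of the 6 proteases in prostate. Prostate samples ran from 3.46 through 4.47 to 5.67 and MEFs from 2.55 through 3.81 to 4.07, and the groups overlapped. The difference of 0.94 (95% interval 0.07 to 1.82, SE 0.40, adjusted p 0.0462 in limma) stayed under the minimum fold change, and with quantile normalization it was -0.20.

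Most grafts had a higher Prss22 level. Grafts 1 to 5 with NAF gave 8.76, 8.19, 7.38, 7.87 and 4.08, and the iEpt only grafts gave 6.74 and 6.61. Grafts 1 to 4 lay above every prostate sample, whereas graft 5 lay within the prostate range. The log2 fold change of grafts over MEFs was 3.73 (SE 0.74, adjusted p 0.00105), and prostate lay -2.79 from the grafts (95% interval -4.43 to -1.14, SE 0.75, adjusted p 0.00833 in limma). Without graft 5 these were 4.52 and -3.58.

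Basal and squamous markers stood in nearly the same order as Prss22. Their mean log2 value over 8 genes was 11, 10.38, 8.81, 8.67 and 5.07 in iEpt+NAF grafts 1 to 5 and 7.16 and 7.89 in the iEpt only grafts, against 4.99 to 5.66 in prostate and 1.98 to 2.42 in MEFs. On the log2 scale, their summed level ran from 10.10 to 14.87 over the iEpt+NAF grafts, stood at 11.74 and 13.61 in the iEpt only grafts, and was 11.34 to 12.04 in prostate and 6.02 to 7.78 in MEFs. Of the 8 markers 5 were called lower in prostate than in the grafts, where 23.0% of all genes were. Ivl and Sprr3 were at or below 3 reads in every prostate sample, and Dsg3 in 5 of 6. These genes entered the test only through the grafts, which fixed their direction, so nothing is read from this count. The basal markers Krt5, Krt14 and Trp63 had means of 10.95, 9.12 and 9.60 in prostate and 11.11, 10.13 and 9.35 in the iEpt+NAF grafts. The part of basal and squamous tissue in the Prss22 difference was not tested.

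The Kunitz inhibitor Spint1 lay higher in every iEpt+NAF graft than in any prostate sample. Prostate samples ran from 10.86 through 10.92 to 11.11, the narrowest range of the 8 genes at 0.25, and MEFs from 2.18 through 2.82 to 3.68. Grafts 1 to 5 with NAF gave 11.25, 11.54, 11.21, 13.18 and 12.29, all above the prostate samples, with graft 4 highest, and the iEpt only grafts gave 11.01 and 9.03. The difference of prostate minus grafts was -0.93 (95% interval -1.61 to -0.26, SE 0.31, adjusted p 0.023 in limma), just short of the minimum fold change. It passed that minimum without graft 1, 2 or 3, at -1.02 to -1.10, and was -0.61 without graft 4. Over MEFs the log2 fold change was 8.10 for prostate (SE 0.21, adjusted p 9.77e-12) and 9.03 for the grafts (SE 0.39, adjusted p 4.13e-08).

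Spint2, in contrast, was higher in prostate. It ran from 13.68 through 13.81 to 14.32 in prostate, gave 13.07, 13.43, 12.90, 13.25 and 12.82 in iEpt+NAF grafts 1 to 5, and 12.01 and 11.30 in the iEpt only grafts. No graft reached the lowest prostate sample. The difference of prostate minus grafts was 0.78 (95% interval 0.46 to 1.10, SE 0.15, adjusted p 0.000947 in limma), under the minimum fold change, and lay between 0.71 and 0.86 with each graft left out in turn. MEFs ran from 5.67 through 6.94 to 7.38, per length the highest MEF level of the 8 genes, and cultures 3 and 4 were again lowest at 5.69 and 5.67. Over MEFs the log2 fold change was 7.24 for prostate (SE 0.29, adjusted p 1.47e-10) and 6.46 for the grafts (SE 0.32, adjusted p 8.25e-08).

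These genes are epithelial, so their values were also taken relative to the mean of the 8 epithelial markers in the same sample, and each difference between prostate and iEpt+NAF grafts was tested with an exact two-sided permutation test over samples. The smallest p that 6 samples against 5 can give is 0.00433, and 8 such tests were made. Of the 8 genes, 6 passed at 0.05 after Benjamini-Hochberg adjustment over these tests. Relative Tmprss2 was 0.57 ± 0.43 in the 6 prostate samples and -0.96 ± 1.14 in the 5 grafts (SD), a difference of 1.53 (exact p 0.013). Relative Hpn was -5.90 ± 0.25 in prostate and -1.94 ± 2.33 in the grafts, a difference of -3.97 (exact p 0.00433). Without graft 4, the graft with the lowest relative Hpn, that difference was -4.87.

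Relative Tmprss4 (difference -2.77) and relative Spint1 (difference -1.16) did not overlap between the groups either, each with the smallest exact p of 0.00433. Relative to Krt8 or Cdh1 alone, the Spint1 difference was -0.44 or -0.60 and no longer passed. Relative Spint2 differed by 0.55 (exact p 0.00866) and relative Prss22 by -3.01 (exact p 0.0173). Without graft 5 the relative Prss22 difference was -3.73, and it missed 0.05 after adjustment without any one of grafts 1 to 4. Relative St14 and Prss8 were -0.22 ± 0.21 and -1.0 ± 0.24 in the 6 prostate samples and -0.04 ± 0.38 and -1.18 ± 0.91 in the 5 grafts (SD). Their differences of -0.18 (exact p 0.312) and 0.18 (exact p 0.632) did not pass.

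The balance of protease and inhibitor transcripts was examined because Spint1 and Spint2 act on these proteases directly. Of 6 differences of log2 values between a protease and an inhibitor, 5 differed between prostate and iEpt+NAF grafts in exact two-sided permutation tests, adjusted over the 6. Gene length does not enter, since the same difference is compared between samples. St14 minus Spint1 was 0.95 ± 0.11 (SD, n = 6) in prostate, with samples from 0.76 to 1.07. In grafts 1 to 5 the same difference was 0.08, 0.31, -0.07, -0.18 and -0.30, and in the iEpt only grafts it was 0.32 and -0.03. The groups with NAF and prostate did not overlap, and the difference between them was 0.98 (exact p 0.00433, adjusted 0.00649).

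Prss8 minus Spint1 showed the same direction with more spread. It was 0.16 ± 0.07 (SD, n = 6) in prostate, and -0.69, -1.74, -0.48, -2.36 and -0.64 in grafts 1 to 5, a difference of 1.34 (exact p 0.00433, adjusted 0.00649). The iEpt only grafts gave -1.14 and -1.43. Without graft 4 the difference was 1.04, and the values were below 0 in all 7 grafts and above 0 in all 6 prostate samples.

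Against Spint2 the direction of matriptase turned. St14 minus Spint2 was -1.97 ± 0.11 (SD, n = 6) in prostate and -1.74, -1.59, -1.76, -0.25 and -0.83 in grafts 1 to 5, a difference of -0.73 (exact p 0.00433, adjusted 0.00649), with no overlap. Grafts 4 and 5 lay furthest from prostate, and with quantile normalization it was -0.49 and no longer passed. In the iEpt only grafts it was -0.69 and -2.30, on either side of the prostate range. Prss8 minus Spint2 overlapped and did not pass, at -2.75 ± 0.18 in prostate and -2.38 ± 0.88 in the grafts (SD).

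The differences of Hpn from both inhibitors were lower in prostate. Hpn minus Spint2 was -7.65 ± 0.21 (SD, n = 6) in prostate and -2.23, -4.31, -1.50, -6.17 and -1.46 in grafts 1 to 5, a difference of -4.52 (exact p 0.00433, adjusted 0.00649). In Hpn minus Spint1 the groups overlapped, since graft 4 at -6.10 lay below the prostate samples, which ran from -5.14 to -4.40. The difference of -2.81 (exact p 0.0303, adjusted 0.0364) did not pass without graft 1, 2, 3 or 5 or with quantile normalization, and was -3.85 without graft 4. The iEpt only grafts gave -1.71 and -1.78 for Spint1 and -2.72 and -4.05 for Spint2. The kidney marker values given beside Hpn hold for these pairs too.

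**Figure D4:**
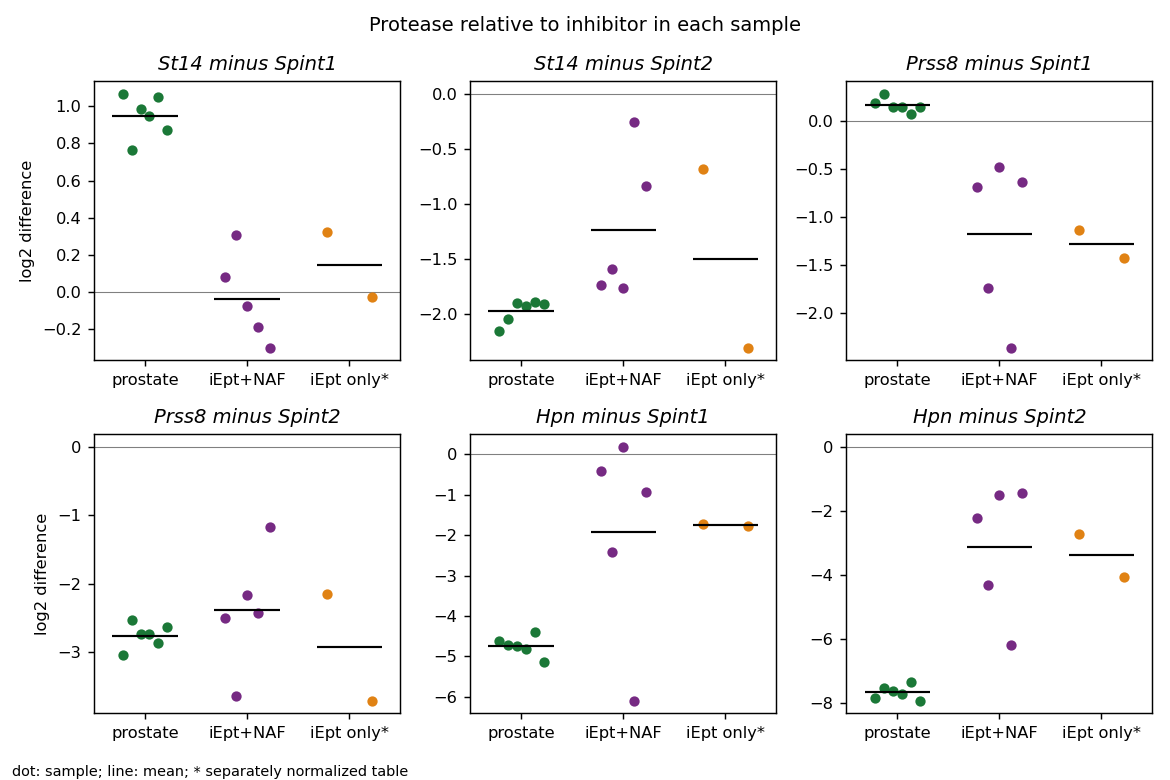
Difference of log2 values (y axis) between a protease and an inhibitor in each prostate and graft sample, 1 panel a pair, with the group mean as a line. In St14 minus Spint1 the prostate samples lie between 0.76 and 1.07 and the iEpt+NAF grafts between -0.30 and 0.31.

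Levels of different genes were compared per length, as the log2 value minus the log2 of the exon length in kb. Spint2 led in all 4 groups without overlap with the next gene, at 13.28 in prostate, 12.50 in iEpt+NAF grafts, 11.06 in iEpt only grafts and 6.03 in MEFs. In prostate the order then was Tmprss2 at 11.03, Prss8 at 10.23, St14 at 9.71, Spint1 at 9.49, Tmprss4 at 5.79, Hpn at 4.49 and Prss22 at 4.07. There, Tmprss2 and Prss8 overlapped, as did St14 and Spint1, and Hpn and Prss22, whereas a gap of several units separated the 5 abundant genes from the 3 low ones.

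In the iEpt+NAF grafts the per-length levels closed up and the order changed. Spint1 came next after Spint2 at 10.43, followed by Prss8 at 9.83, St14 at 9.67, Tmprss2 at 9.27, Tmprss4 at 8.33, Hpn at 8.23 and Prss22 at 6.85, and each of these overlapped with its neighbour. The iEpt only grafts ranked Tmprss2 at 9.15, Spint1 at 8.55, St14 at 7.97, Prss8 at 7.85, Tmprss4 at 6.72, Hpn at 6.54 and Prss22 at 6.27, again all with overlap. In MEFs Prss22 at 3.12 and St14 at 2.02 followed Spint2, the other 5 genes had means from -2.17 to 1.4, and each overlapped with its neighbour.

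The genes with the most similar profiles differed between members. Over the 17 samples of the first table and 16101 genes, the highest Pearson correlation of log2 values was with Ehf for Tmprss2 (0.993), Gsta3 for Tmprss4 (0.986), Ppp1r16b for Hpn (0.988) and Glul for St14 (0.994). For Prss8 it was Hook1 (0.995), for Spint1 Prr15l (0.997) and for Spint2 Stap2 (0.995). Prss22 had the loosest match, Krt13 (0.944), a keratin of stratified epithelia, followed by Aldh1a3 (0.937) and Calml3 (0.935). Next in likeness were Dcp1b and Gm5480 for Tmprss2, Pacsin1 and H2-Ab1 for Tmprss4, Cmbl and Mapt for Hpn, and Plekhh1 and Sowahb for St14. Those of Prss8 were Stard10 and Arhgef16, of Spint1 Erbb3 and Slc37a1, and of Spint2 Nipal3 and Rhpn2. The 17 points fall into 3 groups of samples, and most of each correlation is the step from MEFs to the tissues, so these are descriptions without a test.

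Of 21 other membrane serine proteases in the table, 12 were at or below 3 reads in every MEF culture, 9 in every prostate sample and 2 in every iEpt+NAF graft. Only 3 were high enough to test between prostate and MEFs and 14 in each comparison with the grafts. All 3 were called higher in prostate and all 14 higher in grafts than in MEFs, where 27.8% and 29.9% of all genes were. No MEF level of these genes was high enough for the test by itself, and 8 of the 14 were at or below 3 reads in every culture. They entered only through prostate or the grafts, which fixed their direction, and nothing is read from those counts. Between prostate and grafts, 1 of the 14 was called higher and 10 lower, where 10.3% and 23.0% of all genes were. Apart from the 3 genes tested between prostate and MEFs, the 14 were low in prostate and entered mainly through the grafts. That favoured lower calls, so nothing is read from this count either. The one called higher in prostate was Tmprss13, a transmembrane protease of stratified epithelia, which ran from 10.60 to 11.01 in prostate and gave 8.50, 8.56, 7.63, 7.56 and 2.22 in iEpt+NAF grafts 1 to 5. Prostate exceeded the grafts by a log2 fold change of 3.93 (SE 0.95, adjusted p 0.00462 in limma), and 2.76 without graft 5.

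The genes that were higher in the grafts included members of the Tmprss11 cluster, airway and squamous trypsin-like proteases. Tmprss11d, also known as HAT, gave 7.79, 7.44, 5.99, 9.98 and 7.63 in grafts 1 to 5, and Tmprss11bnl gave 9.33, 9.17, 7.53, 9.74 and 4.35. Both were at or below 3 reads in every prostate sample and every MEF culture. The graft mean of Tmprss11bnl was at least 51.3-fold above prostate and that of Tmprss11d at least 42.9-fold. Prss32, which gave 9.88, 10.73, 11.33, 11.32 and 11.11 in the same grafts and 4.37 and 7.50 in the iEpt only grafts, ran from 0.33 to 5.11 in prostate, a log2 fold change of -7.63 (SE 0.73, adjusted p 9.18e-06 in limma).

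Against MEFs, prostate also had higher Tmprss11a, at least 5.82-fold since every MEF culture was at or below 3 reads, and higher Corin. Corin, the protease that activates atrial natriuretic peptide, had a log2 fold change of 3.26 (SE 0.49, adjusted p 3.87e-05 in limma).

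**Figure D5:**
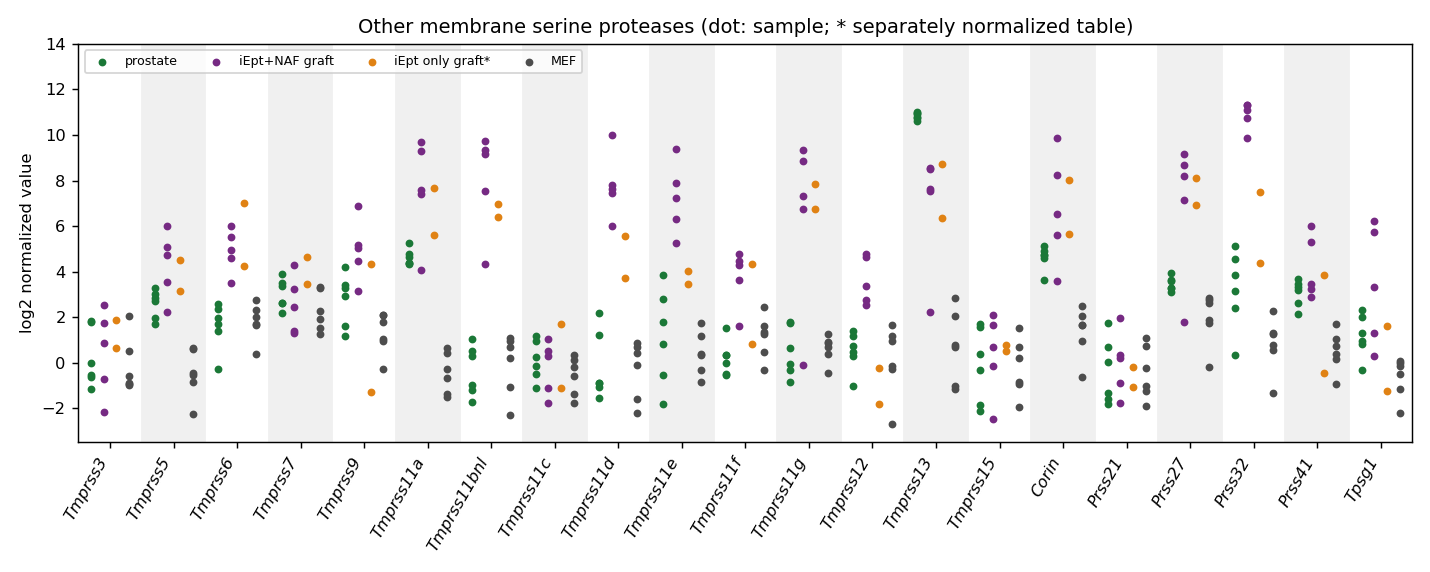
Log2 normalized values (y axis) of 21 other membrane serine proteases (x axis) in every sample, coloured by group. Prostate samples lie highest for Tmprss13, and the iEpt+NAF grafts lie highest for most others, such as Prss32 between 9.88 and 11.33.

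Other serine protease inhibitors did not move one way. Of the 15 listed genes in the table, 10 were tested between prostate and MEFs. Of these, 3 were called higher and 5 lower, where 27.8% and 20.5% of all genes were. Between grafts and MEFs 11 were tested, with 4 higher and 3 lower. Of all 16121 genes tested there, 29.9% were called higher and 1942 genes lower. Prostate compared with grafts had 1 higher and 4 lower of 11, where 10.3% and 23.0% of all genes were. The median log2 fold changes were -0.86, -0.54 and -0.33, beside 0.17, 0.26 and -0.11 for all genes tested. Serpinb5 in MEFs and Serpinf2 in MEFs and prostate were too low to be tested by themselves, which fixed their direction. Whether the inhibitor counts differ from these shares was not tested. Spink5, the LEKTI inhibitor of kallikrein-type proteases, was the one higher in prostate than in grafts, running from 12.90 to 14.23 in prostate and giving 10.64, 11.09, 9.15, 10.70 and 4.08 in grafts 1 to 5. The log2 fold change was 4.61 (SE 1.07, adjusted p 0.00348 in limma), and 3.35 without graft 5. Spink5 and Tmprss13 were thus lowest in the same graft that had the lowest basal and squamous marker mean.

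Wfdc2, a whey-acidic-protein inhibitor, and Serpinf2, the plasmin inhibitor known from liver and kidney, were lower in prostate than in the grafts, with log2 fold changes of -4.63 (SE 0.71, adjusted p 0.000247) and -7.00 (SE 0.82, adjusted p 3.74e-05 in limma). Serpinf2 was at or below 3 reads in 3 of 6 prostate samples and entered the test only through the grafts, which fixed its direction. It gave 10.27, 6.89, 11.46, 7.23 and 10.95 in grafts 1 to 5, and the same 3 grafts as for the kidney markers were high. Without graft 5 the Wfdc2 difference was -5.46, without graft 2 that of Serpinf2 was -7.62, and with only grafts 2 and 4 it was -4.70. Grafts 2 and 4 had the lowest Serpinf2, so that smaller difference was fixed by their choice.

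Serpinb5, the serpin maspin of basal epithelium, was at or below 3 reads in every MEF culture and at least 127-fold higher in prostate and at least 92.6-fold higher in grafts. App, whose long forms hold a Kunitz domain, was lower than in MEFs in prostate by a log2 fold change of -1.96 (SE 0.18, adjusted p 3.65e-07) and in grafts by -1.27 (SE 0.15, adjusted p 3.29e-05 in limma), the latter -0.20 and not called with quantile normalization. Tfpi2 in prostate (-1.86, SE 0.54, adjusted p 0.00643) and Tfpi in grafts (-1.75, SE 0.67, adjusted p 0.0368 in limma) were also lower than in MEFs, with overlapping groups, and Tfpi was not called without graft 4 or graft 5, with the close MEF pairs averaged (adjusted p 0.148) or with MEF cultures 5 and 6 alone (adjusted p 0.196).

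Of 18 substrates, activators and receptors of these proteases in the table, 15 were tested between prostate and MEFs, with 10 higher and 4 lower, and 18 between grafts and MEFs, with 14 higher and 4 lower. In prostate compared with grafts none of the 18 was higher and 11 were lower, where 10.3% and 23.0% of all genes were, with a median log2 fold change of -2.14. Umod, Mst1 and F7, among those called lower, were too low in prostate to be tested without the grafts, which fixed their direction. All 10 kidney markers, for which the same holds apart from Kap and Cubn, were also lower in prostate, with a median of -7.84, or -6.84 with bounds. Umod stands in both lists, and the part of kidney tissue in the substrate count was not tested. The medians over MEFs were 3.31 for prostate and 4.86 for grafts, the latter 4.65 with bounds. Epcam, an adhesion protein cut by matriptase, had a log2 fold change over MEFs of 10.66 in prostate (SE 0.38, adjusted p 5.63e-11) and 10.16 in grafts (SE 0.53, adjusted p 1.07e-07 in limma). In prostate, Cdcp1, a matriptase substrate, was higher than in MEFs by 8.20 (SE 0.28, adjusted p 4.39e-11), and Scnn1b, a subunit of the epithelial sodium channel, by 8.26 (SE 0.51, adjusted p 6.50e-09 in limma).

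Plasminogen activator genes were lower in both tissues than in MEFs. Plau, the urokinase gene, Plaur, its receptor, and Plat, the tissue-type activator, were lower in prostate than in MEFs, by log2 fold changes of -3.83 (SE 0.32, adjusted p 1.39e-07), -4.51 (SE 0.42, adjusted p 3.44e-07) and -3.01 (SE 0.35, adjusted p 3.59e-06 in limma). In grafts the changes were smaller, at -1.46 for Plau (SE 0.46, adjusted p 0.0154) and -1.45 for Plaur (SE 0.49, adjusted p 0.0221 in limma), both with overlapping groups. Neither passed when the 3 close MEF pairs were averaged (adjusted p 0.0928 and 0.103 in limma), and Plaur did not pass without graft 1, 2 or 3. Hgf, the growth factor whose precursor matriptase and hepsin cut, was lower in grafts than in MEFs, at -2.66 (SE 0.27, adjusted p 9.96e-06 in limma).

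Between prostate and grafts, Umod, Mst1 and F7 were among the substrates called lower in prostate. Umod, the urinary protein that hepsin releases and which is itself one of the kidney markers, gave 13.06, 4.93, 12.05, 6.09 and 12.56 in grafts 1 to 5. It was at or below 3 reads in every prostate sample, so the graft mean was at least 169-fold higher. Mst1, a precursor of a growth factor that hepsin cuts, had a log2 fold change of -4.41 (SE 0.31, adjusted p 1.32e-06), and F7, a coagulation protease precursor, one of -3.77 (SE 0.74, adjusted p 0.00122 in limma), where 4 of 6 prostate samples were at or below 3 reads for F7. Mst1 ran from 6.70 to 7.55 over the 5 iEpt+NAF grafts and from 2.13 to 3.26 in prostate, a narrower spread in the grafts than that of Umod.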

How the data were processed

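RNA was sequenced from 19 samples. The submitters' processing notes name bcl2fastq 1.8.4, TopHat, Cufflinks, DESeq and mm9. The authors deposited normalized log2 values in 2 tables, of 17 and 2 samples, and their transformation is not given in the sources used here. Values from 11.5 to 15 matched whole reads within 0.05 reads after an offset of 1.611, and gave the estimated depth, while lower values carry added scatter, so no count test was run. Members and gene lists were chosen with earlier results of these data known. Groups were compared as log2 values with limma 3.58.1 (R 4.3.3, lmFit, eBayes with trend), each fit holding 2 groups and the genes whose mean on the linear scale reached 10, and the fit was checked on simulated data. Beyond the 8 genes, up to 3 called genes per list, comparison and direction were named, with the 3 closest profiles per gene, but a few of these genes are not reported here. Single values were tested by exact permutation (scipy 1.17.1). Alternatives changed the filter, pseudocount (10 on linear values), scaling, samples, trend and minimum fold change, and left out each graft. Only mm9 was used for coordinates, with GENCODE M1. Python 3.11.15, numpy 2.4.6, pandas 2.3.3 and matplotlib 3.10.9 were used. Protein sequences were not used here.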

Additional observations from a re-analysis of the deposited data

Results flagged for a closer look

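In prostate sample 1, Spint2 had a log2 value of 14.32, away from the other five, which lay between 13.68 and 13.89. It was the only one of 52 sets of samples in which an extreme sample stood apart by Dixon's criterion, where chance gives about 2.6. The sample was kept in all comparisons.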

How the results depend on the processing

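Over all alternatives run, 7 of the 8 genes were called higher in prostate than in MEFs, or all 8 with no minimum fold change, and all 8 higher in grafts than in MEFs. Between prostate and grafts 4 to 6 were called, with Spint1 the added gene in each setting with 5. With no minimum fold change the genes called rose from 7026 to 11772, from 6757 to 10573 and from 5440 to 9093 in the 3 comparisons. With each graft left out in turn, calls numbered 6370 to 6858 for grafts over MEFs and 5051 to 5843 for prostate over grafts. The genes that passed relative to epithelial markers numbered 5 to 6 and the pairs 4 to 5. Alternatives chosen after seeing the data averaged the MEF pairs or kept grafts 2 and 4 alone. In the latter, 0 genes passed relative to epithelial markers, where 6 had, and 0 pairs, where 5 had, since 6 samples against 2 cannot give an exact p under 0.0714. With quantile normalization 3 pairs passed, without St14 minus Spint2 and Hpn minus Spint1. Directions turned for values that did not pass: Prss22 in prostate over MEFs to -0.20 (quantile), St14 in prostate over grafts to -0.16 (quantile), -0.13 to 0.33 (each graft left out, below 0 at -0.09 and -0.13 without graft 1 or 3) and -0.51 (grafts 2 and 4), St14 relative to Krt8 or Cdh1 alone to 0.54 and 0.38, Prss8 relative to epithelial markers to -0.10 (without graft 2, in a range up to 0.49), and Prss8 minus Spint2 to 0.27 (grafts 2 and 4) and 0.0056 (quantile). The cause was not tested. Of the other values, 785 kept direction and side, 36 no longer passed and 9 newly passed. No paired analysis was possible because the labels give no replicate numbers that groups share. Depth limits low genes, with the value of 3 reads at 1.68 to 2.34 in the first table.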
